A study of Mus musculus with 6 samples.

Results

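The laminin and nidogen genes were 10 genes (Lama2, Lama3, Lama4, Lama5, Lamb1, Lamb2, Lamb3, Lamc1, Nid1 and Nid2), found by gene name among the 55421 gene identifiers of the series. All 10 passed the expression filter, which left 18140 genes for testing. They were followed in DM1 myoblasts on day 4 of differentiation, in 3 control libraries (CUG200-ctrl) and 3 miR-322/-503 libraries (CUG200-m). Both groups were stable derivatives of C2C12, myoblasts of mouse origin whose cells fuse to myotubes in low serum, and both carried a plasmid with 200 CTG repeats behind GFP, the model of myotonic dystrophy type 1 (DM1). The control cells also carried an empty vector, which the study does not name, and the other cells carried pLL4.0 with the miR-322/-503 fragment. The promoter that drove the microRNAs is not given in the sources used here. Each group was its own stable line obtained by drug selection, so an effect of miR-322/-503 and a difference that arose between the lines cannot be told apart.

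The libraries held 73532084 to 92157388 estimated counts, about 18383021 to 23039347 read pairs. Levels of the members in each library are given as CPM, counts scaled to library size after TMM normalization of the libraries. Levels between genes are compared as TPM, which is also scaled by transcript length, and levels of some other genes are given on that scale where marked. A gene rose or fell when edgeR's quasi-likelihood test gave an adjusted p-value under 0.05. The cut-off of the study additionally asks for a log2 fold change (log2FC, miR-322/-503 against control) above 1 or below -1. Standard errors (SE) come from the same fit. The methods of the study state biological replicates for its assays in general, but the labels do not say whether the libraries of a group came from separate cultures, so the p-values measure the spread between these libraries. Muscle markers, named here after their values were seen, were present in both groups, with Myod1 at 47.6 ± 6.34 and 60.6 ± 4.32 TPM and Des at 783 ± 49.9 and 1185 ± 26.4 TPM in the control and miR-322/-503 libraries (SD, n = 3). Pax7, a marker of satellite cells, did not exceed 12 estimated counts (3 read pairs) in any library. The groups differed in markers. Of 11 muscle markers, 6 rose (Myod1, Myf5, Des, Mymx, Ckm and Tnnt3) and 4 were not past the threshold, among them Mymk (log2FC -0.41, edgeR, adjusted p = 0.0796) and Myh3 (-0.05, adjusted p = 0.735). Myog, the myogenic factor that drives differentiation, fell from 258 ± 20.9 to 153 ± 17.0 TPM (SD, n = 3), with a log2FC of -0.74 (edgeR, adjusted p = 0.000665). The RT-qPCR of the study reported MyoD, MyoG, Myomixer (Mymx) and Myomaker (Mymk) as upregulated with miR-322/-503. In these libraries Myod1 and Mymx rose, Mymk was not past the threshold and Myog fell. The summed muscle TPM lay between 3519 and 3878 in the control and between 4318 and 4501 with miR-322/-503. Of 7 fibroblast markers, 5 were tested. Pdgfra, Pdgfrb, Dcn and Lum fell and Col1a1 rose, while the summed TPM of the list overlapped (1316 to 1343 against 1242 to 1404), with Tcf21 at 0 in all libraries and Thy1 at no more than 12 counts. The part of these shifts in the changes below was not tested, and in bulk RNA fewer cells of a kind and less RNA per cell cannot be told apart.

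Laminins are heterotrimers of an alpha, a beta and a gamma chain, which are secreted and polymerize into the sheet on which a basement membrane is built. Nidogens bind the laminin gamma chain on one side and collagen IV on the other and so connect both networks. In muscle, the basement membrane surrounds each fibre. The Lama2 chain is the main alpha chain of mature fibres, and its loss causes a congenital muscular dystrophy. Lama4 and Lama5 chains are prominent in vessels, nerve, synaptic basement membrane and developing muscle. Lama3 and Lamb3 chains belong to the laminin that anchors epithelia.

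With miR-322/-503, the family did not move one way. Of the 10 genes, 6 passed the test, as did 28.8% of all tested genes: 3 fell (Lama4, Lamb2 and Nid2), 3 rose (Lama2, Lama5 and Nid1) and 4 were not past the threshold (Lama3, Lamb1, Lamb3 and Lamc1). Among all tested genes, 15.5% fell and 13.2% rose by the same rule. Lama4 and Nid2 were also past the cut-off, as were 5.29% of tested genes in the lower direction and 9.87% in either. No member was past it in the higher direction, where 4.59% of tested genes were, although 3 rose at the adjusted p-value alone. The median log2FC of the 10 genes was 0.13, against -0.01 over all tested genes. The groups did not overlap for 7 of the 10 genes, and for 45.1% of all tested genes.

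**Figure D1:**
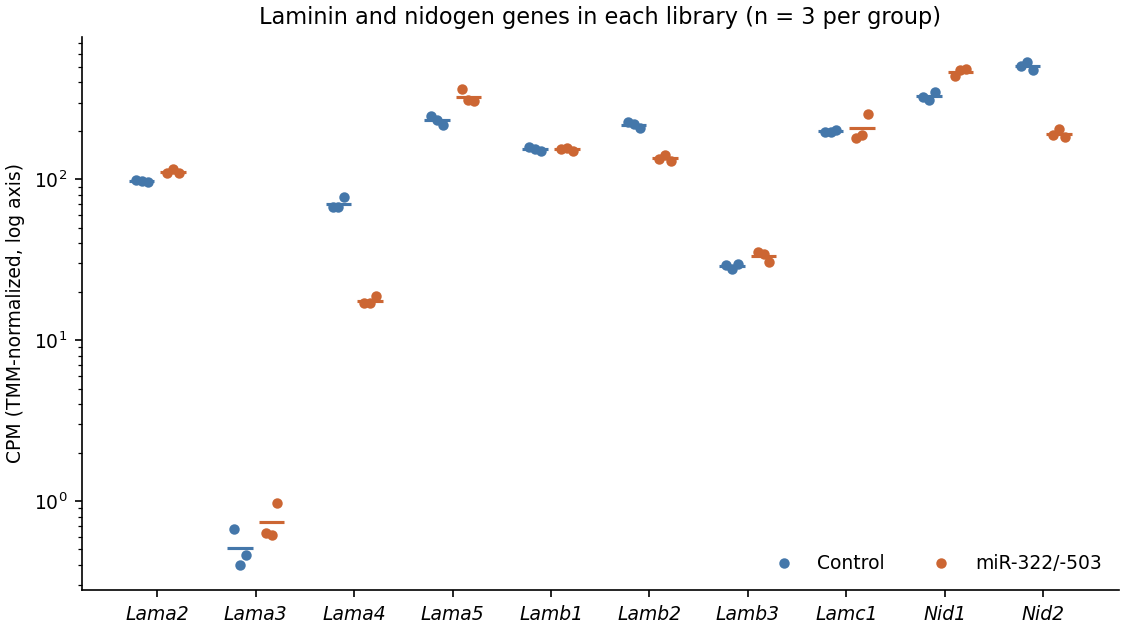
CPM (log axis) of each laminin and nidogen gene in the 3 control (blue) and 3 miR-322/-503 (orange) libraries; points are libraries and bars are group means. Lama4, Lamb2 and Nid2 lie lower with miR-322/-503, Nid1 and Lama5 lie higher, and Lama3 lies below 1 CPM in every library.

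Lama4, a short alpha chain without the N-terminal domain through which other laminins polymerize, had the largest fall among the members. It (ENSMUSG00000019846) lies on the plus strand of chromosome 10 of GRCm38 from 38965515 to 39110188. Its level was 67.4, 66.8 and 77.3 CPM in the control libraries and 17.0, 16.9 and 18.8 CPM in the miR-322/-503 libraries. Every miR-322/-503 library was thus far below every control library. The mean fell from 70.5 ± 5.89 to 17.6 ± 1.05 CPM (SD, n = 3), giving a log2FC of -2.005 ± 0.09 (SE; edgeR, adjusted p = 5.77e-06), or 4.01-fold lower. By the smallest root mean square distance between centred log2 CPM profiles over the 6 libraries, among the 9655 tested genes that averaged 10 CPM or more, the patterns most like it were those of Pcdh18 (0.0444), Nhs (0.0529) and Timp3 (0.0539). Timp3, an inhibitor of metalloproteinases, had a log2FC of -2.08.

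Lama5, a full-length alpha chain of many tissues, went the other way. It (ENSMUSG00000015647) lies on the minus strand of chromosome 2 from 180176373 to 180225859. The control libraries held 248, 233 and 218 CPM and the miR-322/-503 libraries 363, 309 and 306 CPM. The groups did not overlap, and miR-322/-503 replicate 1 was the highest. The mean rose from 233 ± 14.9 to 326 ± 32.0 CPM (SD, n = 3), giving a log2FC of 0.49 ± 0.09 (SE; edgeR, adjusted p = 0.00521). Lama2 (ENSMUSG00000019899), on the minus strand of chromosome 10 from 26980036 to 27619758, held 98.5, 97.7 and 95.8 CPM in the control and 109, 116 and 109 CPM with miR-322/-503. This was a small rise with little spread, giving a log2FC of 0.19 ± 0.05 (SE; edgeR, adjusted p = 0.0262). The call rested on having all libraries, since 5 of the 6 fits that each left out 1 library no longer passed the threshold (adjusted p from 0.0480 to 0.0926 over the 6, in edgeR), and on log2(TPM + 1) the log2FC was 0.07 (adjusted p = 0.616 in limma). Lama3 (ENSMUSG00000024421), on the plus strand of chromosome 18 from 12333819 to 12583013, was close to the detection limit, with counts of 52, 33 and 39 (control) and 60, 46 and 73 (miR-322/-503). Its groups overlapped, and its log2FC was 0.53 with a 95% interval from -0.16 to 1.21 (edgeR, adjusted p = 0.314), so a change was not detectable at this depth.

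The beta chains also parted. Lamb2 (ENSMUSG00000052911), the beta chain concentrated at the neuromuscular junction, lies on the plus strand of chromosome 9 from 108479736 to 108490530. It held 226, 219 and 209 CPM in the control and 134, 141 and 130 CPM with miR-322/-503. All 3 miR-322/-503 libraries were below all 3 controls. The mean fell from 218 ± 8.84 to 135 ± 5.57 CPM (SD, n = 3), giving a log2FC of -0.69 ± 0.06 (SE; edgeR, adjusted p = 0.000168). On chromosome 9 as a whole, the median log2FC was -0.27 over 1014 tested genes, of which 76.3% were below 0, against a median of 0.01 over the other autosomes. The part of this in the fall of Lamb2 was not tested.

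Lamb1 (ENSMUSG00000002900), the widely expressed beta chain, lies on the plus strand of chromosome 12 from 31265234 to 31329644. It held 159, 154 and 149 CPM in the control and 155, 156 and 149 CPM with miR-322/-503. The ranges of both groups almost coincided. Its log2FC was 0.00 to the second decimal, with a 95% interval from -0.11 to 0.10 (edgeR, adjusted p = 0.977). Lamb3 (ENSMUSG00000026639), the beta chain of epithelial laminin, lies on the plus strand of chromosome 1 from 193207699 to 193343878. It held 29.4, 27.8 and 29.8 CPM in the control and 35.4, 34.5 and 30.6 CPM with miR-322/-503. The groups did not overlap, but the log2FC of 0.21 (95% interval from 0.05 to 0.37, unadjusted) was not past the threshold after adjustment (edgeR, adjusted p = 0.0965). Among 6 epithelial markers, Krt14 alone was tested and it fell (log2FC -1.43), while Krt5 was at 0 in all libraries and Epcam did not exceed 12 counts. Untested Krt18 had 0, 0 and 0 counts in the control and 0, 12 and 24 with miR-322/-503. Cdh1 had 0, 8 and 4 against 8, 30 and 8, and Krt8 0, 8 and 5 against 5, 5 and 14. The summed TPM of that list lay between 44.5 and 51.6 in the control and between 13.9 and 18.9 with miR-322/-503. Most of it was Krt14, with means of 47.1 and 16.5 TPM.

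**Figure D2:**
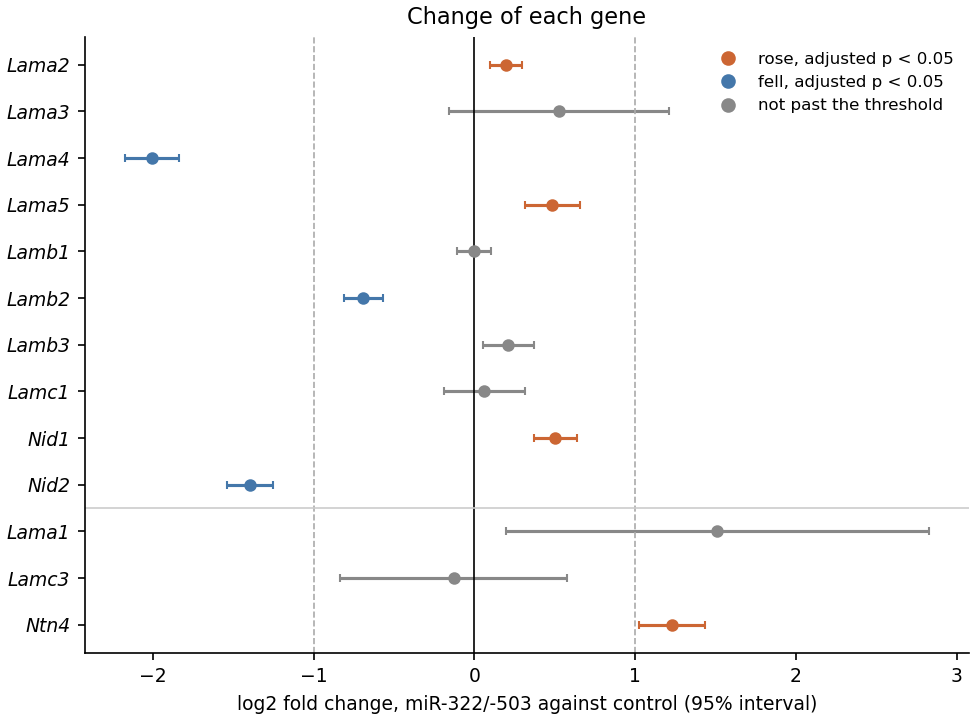
Log2FC (log2 fold change) of miR-322/-503 against control for the 10 genes and, under the line, 3 related genes; bars are 95% intervals (1.96 standard errors either side, not adjusted for the number of genes) and dashed lines mark the cut-off at -1 and 1. Lama4 (-2.005) and Nid2 (-1.39) lie beyond the cut-off on the lower side, and Ntn4 (1.23) beyond it on the higher side. The point of Lama1 (1.51, interval from 0.20 to 2.83) also lies above 1, but Lama1 was not past the threshold.

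Lamc1 is the gamma chain shared by most laminins and carries the nidogen binding site. It (ENSMUSG00000026478) lies on the minus strand of chromosome 1 from 153218922 to 153332786. The control libraries agreed closely at 196, 198 and 203 CPM, while the miR-322/-503 libraries held 181, 188 and 255 CPM. Replicate 3 with miR-322/-503 was above and the other two below every control library. The log2FC was 0.06 ± 0.13 (SE; edgeR, adjusted p = 0.774), and without that replicate it was -0.11 (adjusted p = 0.292). On the TPM scale the same library was the lowest of all, at 61.0 against 84.1 and 93.4 TPM in the other miR-322/-503 libraries and 95.2, 97.4 and 104 TPM in the control. On TPM every miR-322/-503 library was thus below every control library, with a log2FC of -0.33 on log2(TPM + 1) (adjusted p = 0.157 in limma). A direction for Lamc1 therefore depended on the scale and, on CPM, on 1 library. The tables used here give no values per transcript, and the source of the disagreement was not tested.

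**Figure D3:**
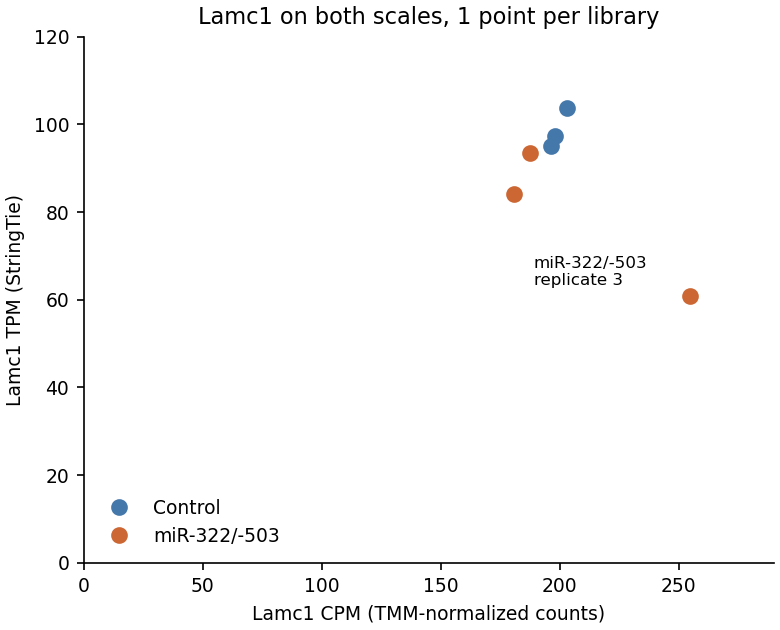
Lamc1 in each library as CPM (horizontal) and as StringTie's TPM (vertical), with both axes starting at 0. The control libraries cluster, and miR-322/-503 replicate 3 has the highest CPM (255) and the lowest TPM (61.0).

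Since microRNAs act through matches of their seed in 3'UTRs, the sequences of both overexpressed microRNAs are shown with the seed (bases 2 to 8) in capitals, as RefSeq gives them on GRCm38.p6. They lie on the minus strand of chromosome X, at chrX:53054306-53054327 and chrX:53054027-53054049. Their seeds differ in the last base, so that the matching heptamers in a transcript are TGCTGCT for miR-322 and CGCTGCT for miR-503.
mmu-miR-322-5p: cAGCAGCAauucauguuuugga
mmu-miR-503-5p: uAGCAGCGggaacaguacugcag
The longest annotated 3'UTR of each gene was searched on the transcript strand in GENCODE M21. Among the 10 members, Lamc1 alone held a match, TGCTGCT at base 97 of its 2551 bases (chr1:153221370-153221376, minus strand). Among 13416 tested genes with a 3'UTR, 24.4% held TGCTGCT and 4.87% held CGCTGCT. Most members have short 3'UTRs, such as 155 bases in Lama4, 110 in Lamb2 and 591 in Nid2, against a median of 1174 over these genes. Neither heptamer was found in the 3'UTRs of Lama4, Lamb2 and Nid2, the members that fell. Shorter seed matches and sites outside the 3'UTR were not searched. The site is shown with the match in capitals.
Lamc1: ccccacttctcTGCTGCTctccatcactg
The annotated microRNA genes were at the detection limit. Mir322 had 1, 7 and 2 counts in the control libraries and 17, 0 and 3 in the others. Mir503 had 1, 1 and 2 counts in the control libraries and 6, 4 and 5 in the others, without overlap but at or under 12 counts (3 read pairs) throughout. These counts are too few to measure the overexpression.

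The nidogens moved in opposite directions. Nid2 (ENSMUSG00000021806) lies on the plus strand of chromosome 14 from 19751265 to 19811787. It held 506, 537 and 475 CPM in the control and 189, 205 and 183 CPM with miR-322/-503. The groups were far apart. The mean fell from 506 ± 30.8 to 192 ± 11.7 CPM (SD, n = 3), giving a log2FC of -1.39 ± 0.07 (SE; edgeR, adjusted p = 1.52e-05), or 2.63-fold lower. Nid2 shares 437 exon bases with Rtraf on the opposite strand, and the strand setting of the counting is not given in the sources used here. Rtraf was not past the threshold (log2FC 0.09, edgeR, adjusted p = 0.451). The patterns most like that of Nid2 were those of Ptgis, the prostacyclin synthase (distance 0.0489), Asf1b, a histone chaperone (0.0580), and Il11ra1, an interleukin receptor chain (0.0631).

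Nid1 (ENSMUSG00000005397), on the plus strand of chromosome 13 from 13437551 to 13512269, held 325, 312 and 349 CPM in the control and 440, 479 and 482 CPM with miR-322/-503. Every miR-322/-503 library was above every control library. The mean rose from 329 ± 18.9 to 467 ± 23.7 CPM (SD, n = 3), giving a log2FC of 0.50 ± 0.07 (SE; edgeR, adjusted p = 0.00133). On chromosome 13 the median log2FC was 0.15 over 749 tested genes, whose part in this rise was not tested.

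Ntn4 and the laminin chains Lama1 and Lamc3 were read beside the 10 genes. Ntn4, a netrin that binds the laminin gamma chain and can disturb the laminin network, held 23.5, 26.7 and 28.3 CPM in the control and 54.3, 62.0 and 67.3 CPM with miR-322/-503, giving a log2FC of 1.23 ± 0.10 (SE; edgeR, adjusted p = 0.000139). Lama1 and Lamc3 stayed under 1 CPM in every library. Neither was past the threshold (log2FC 1.51 and -0.13, adjusted p = 0.139 and 0.836 in edgeR's test).

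Levels of different genes were compared on the TPM scale. In the control, the order of mean TPM was Nid2 (221 ± 28.4), Nid1 (104 ± 5.92), Lamc1 (98.8 ± 4.45), Lamb2 (91.9 ± 5.57), Lamb1 (52.3 ± 2.12), Lama5 (40.5 ± 3.14), Lama2 (26.6 ± 1.497), Lama4 (23.4 ± 1.95), Lamb3 (14.0 ± 0.301) and Lama3 (0.0907 ± 0.0273; SD, n = 3 for each). Of these neighbours, Nid1 and Lamc1 overlapped between libraries, as did Lamc1 and Lamb2. With miR-322/-503, the order was Nid1 (146 ± 6.87), Nid2 (86.3 ± 7.14), Lamc1 (79.5 ± 16.7), Lamb2 (56.8 ± 4.11), Lama5 (55.8 ± 7.57), Lamb1 (51.8 ± 2.97), Lama2 (28.0 ± 2.11), Lamb3 (15.6 ± 1.61), Lama4 (6.15 ± 0.285) and Lama3 (0.129 ± 0.0292). Here the neighbours that overlapped were Nid2 with Lamc1, Lamb2 with Lama5, and Lama5 with Lamb1. Nid2 and Nid1 had thus changed places, and Lama4 had moved below Lamb3. With CPM per kilobase of exon in place of TPM, part of the order differed. In the control, Lama4 (11.7 ± 0.973) was then above Lama2 (9.92 ± 0.139) and Lamb2 (38.4 ± 1.56) above Lamc1 (26.1 ± 0.480), each without overlap (SD, n = 3). With miR-322/-503, Lama5 (28.6 ± 2.81) and Lamb1 (26.3 ± 0.604) were above Lamb2 (23.8 ± 0.981). The change of places between Nid1 and Nid2 was present on both scales, as was the position of Lama4 below Lamb3 with miR-322/-503.

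**Figure D4:**
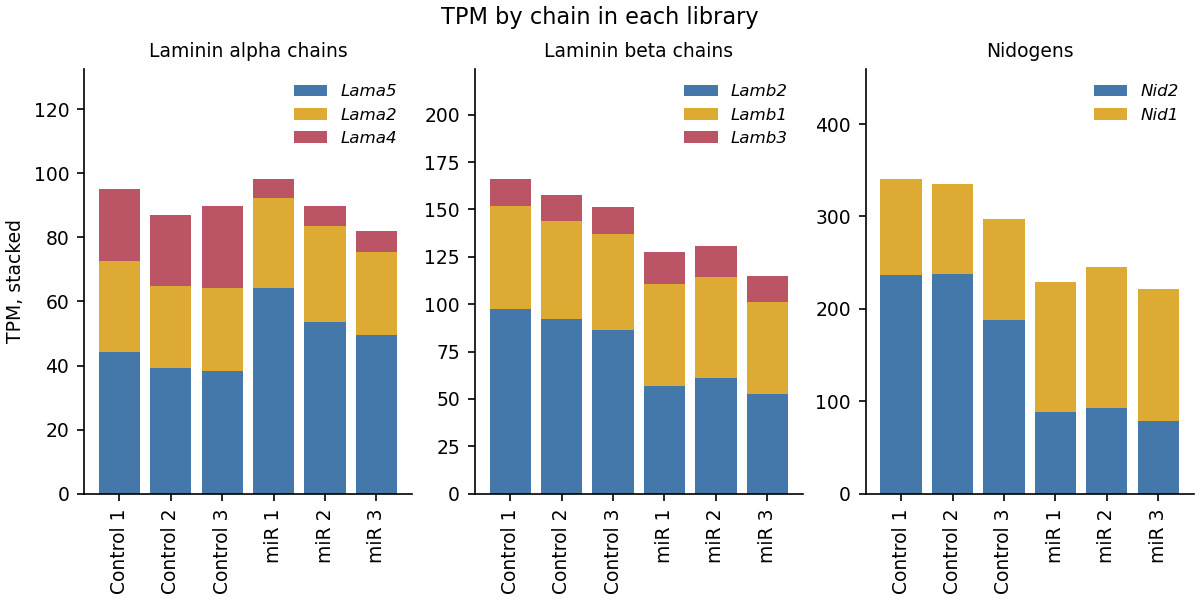
Stacked TPM of the laminin alpha and beta chains and of the nidogens in each of the 6 libraries; each panel has its own vertical axis from 0, and Lama1 and Lama3, each under 1 TPM, are left out. Lama4 shrinks from 23.4 to 6.15 mean TPM while the summed alpha chain stays near 90 TPM, and Nid1 takes the larger part of the nidogens with miR-322/-503.

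The deposited TPM values were then summed over the alpha chains, the beta chains and the nidogens in each library. The alpha chains changed in make-up and little in sum. Lama4 made up 23.7%, 25.3% and 28.5% of the alpha chain TPM in the control libraries and 5.98%, 6.80% and 7.86% in the miR-322/-503 libraries. Lama5 made up 46.3%, 45.1% and 42.6% in the control and 65.3%, 59.5% and 60.4% with miR-322/-503. Neither chain overlapped between the groups. Both differences reached p = 0.1 in a two-sided exact permutation test, the smallest p that 3 libraries against 3 allow. The share of Lama2 was 29.4% ± 0.497 in the control and 31.2% ± 2.50 with miR-322/-503 (n = 3, exact permutation p = 0.4). With counts per exon length in place of TPM its groups did not overlap, at 23.6% ± 0.380 and 26.5% ± 2.03 (n = 3, exact permutation p = 0.1), and on TPM the difference of 1.81 percentage points ranged from 0.656 to 3.14 with 1 library left out. The summed alpha chain TPM was 90.7 ± 4.17 and 90.1 ± 8.12 (n = 3, exact permutation p = 1).

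Among beta chains, Lamb2 went from 58.1% ± 0.873 to 45.7% ± 1.01 of the TPM and Lamb1 from 33.1% ± 0.339 to 41.8% ± 0.746, although Lamb1 itself was not past the threshold. With counts per exon length, Lamb2 went from 54.6% ± 0.492 to 42.1% ± 0.624 and Lamb1 from 37.4% ± 0.0754 to 46.4% ± 0.596, so that which chain led with miR-322/-503 depended on the scale. On TPM, neither share overlapped between the groups (exact permutation p = 0.1 for each, the smallest possible). The summed beta chain TPM was 158 ± 7.43 in the control and 124 ± 8.29 with miR-322/-503, with no overlap (n = 3, exact permutation p = 0.1). The summed TPM of the 8 laminin members was 356, 342 and 345 in the control and 309.8, 314 and 258 with miR-322/-503 (exact permutation p = 0.1, the smallest possible). The groups did not overlap, and miR-322/-503 replicate 3 was the lowest. The difference of means was -53.8 TPM, and without that replicate it was -35.9 TPM. With counts per exon length, rescaled to the control mean of TPM, it was -29.5. Lamc1, whose direction depended on the scale and, on CPM, on that library, went from 98.8 to 79.5 TPM within this sum.

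The log2 ratio of Nid1 to Nid2 TPM was -1.19, -1.28 and -0.78 in the control libraries and 0.67, 0.73 and 0.86 in the miR-322/-503 libraries. The sign differed between the groups in every library (exact permutation p = 0.1, the smallest possible). Nid1 was 32.1% ± 4.11 of the nidogen TPM in the control and 62.8% ± 1.56 with miR-322/-503. The summed nidogen TPM was 324 ± 23.5 and 232 ± 12.6 (SD, n = 3), so that the rise of Nid1 did not make up for the fall of Nid2 on this scale.

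The other components of basement membranes were read as a list of 26 genes, of which 22 were tested. Of these, 9 fell, 5 rose and 8 were not past the threshold, with a median log2FC of -0.14, where 15.5% of all tested genes fell and 13.2% rose. Among the genes of collagen IV, the network to which nidogens tie laminin, changes went both ways. Col4a1 fell from 560 to 124 mean CPM, a log2FC of -2.17 (standard error 0.09), while Col4a6 was low and rose from 0.391 to 1.80 mean CPM, giving a log2FC of 2.20 ± 0.50 (SE; edgeR, adjusted p = 0.0146). Their pairing partners, named after their values were seen, moved the same way, with log2FCs of -1.82 in Col4a2 and 0.83 in Col4a5. Of the remaining collagen IV genes, Col4a4 did not exceed 34 counts (log2FC 0.08, edgeR, adjusted p = 0.959) and Col4a3 did not pass the expression filter. Hmcn1, a giant matrix protein of basement membranes, had the largest rise, from 0.228 to 6.19 mean CPM (16, 15 and 25 estimated counts in the control, log2FC 4.75). Fbln1 and Fbln2, fibulins that bind nidogen and laminin, fell with log2FCs of -1.84 and -1.01. Sparc, a collagen binding glycoprotein and by far the most abundant gene of the list, fell from 9972 ± 261 to 6171 ± 600 TPM (SD, n = 3), a log2FC of -0.79.

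Of 14 genes for laminin receptors and the complex around dystroglycan, 4 rose, 3 fell and 7 were not past the threshold, with a median of 0.14, beside 13.2% and 15.5% of all tested genes. With the replicate number as a block, 6 were higher and 4 lower. Itga7, the integrin alpha chain of the main laminin receptor of muscle, rose from 293 ± 24.5 to 455 ± 33.1 TPM (SD, n = 3), a log2FC of 0.63. Itgb1, its partner, had a log2FC of 0.25 (edgeR, adjusted p = 0.110). Bcam, a receptor for the Lama5 chain, had the largest rise, with counts of 183, 150 and 92 (control) and 850, 741 and 646 (miR-322/-503), a log2FC of 2.38 ± 0.27 (SE; edgeR, adjusted p = 0.000537). Itga3, an integrin chain that binds epithelial laminin and laminins with Lama5, fell with a log2FC of -1.05, and the sarcoglycan gene Sgcd fell with -1.19.

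**Figure D5:**
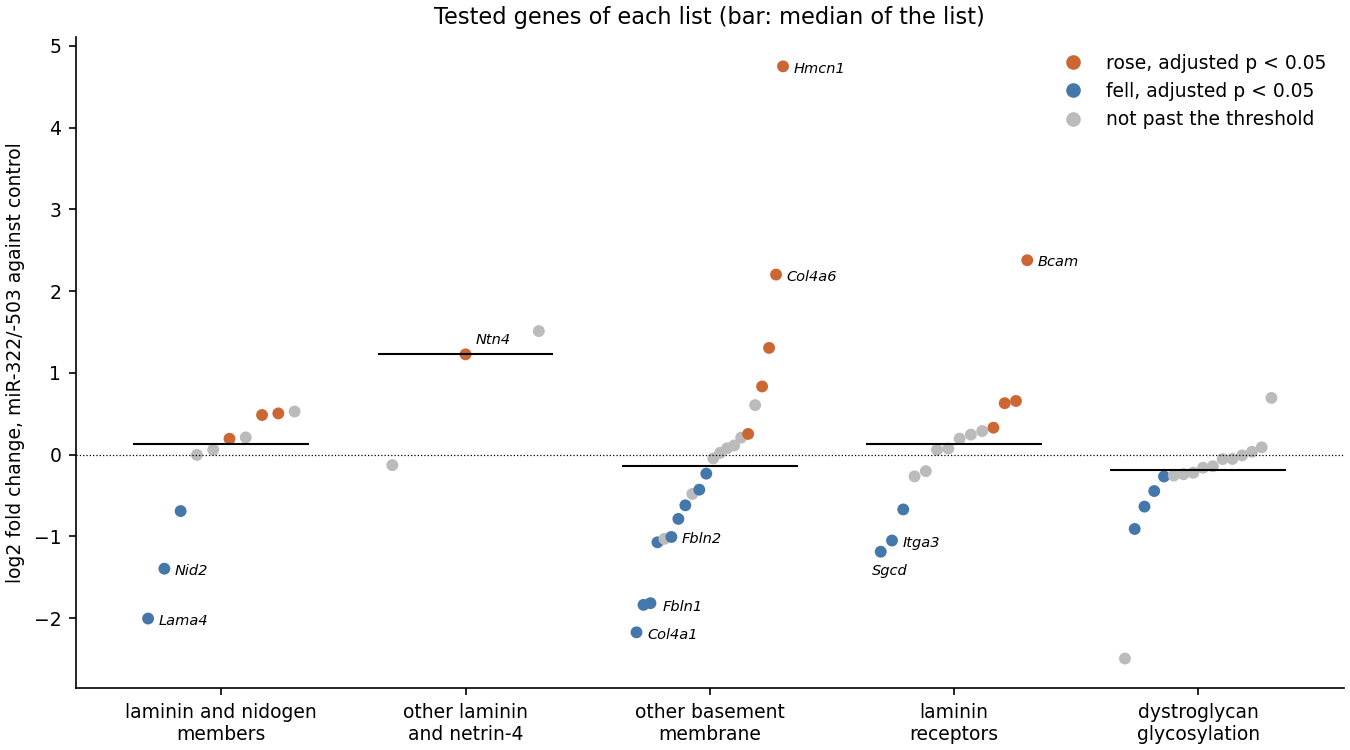
Log2FC (log2 fold change) of every tested gene in the laminin and nidogen list and 4 related lists. Each point is a gene, colours give the test result and black bars are list medians. Names mark genes past the cut-off that the text describes, except Col4a2, which is not named. The laminin and nidogen genes spread on both sides of 0 (median 0.13), as do the other basement membrane genes (median -0.14).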

How the data were processed

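RNA of 3 control and 3 miR-322/-503 libraries was sequenced in pairs. The authors used Trim Galore for trimming, HISAT2 for alignment to the GRCm38 genome, and StringTie for quantification. Versions, annotation and strand setting are not given in the sources used here. The authors deposited a table of estimated counts, and per library the mean coverage, FPKM and TPM that StringTie computed. A read pair was worth about 4 estimated counts, so 12 counts stand for 3 read pairs. Up to 13 repeat listings of a gene in a library table were summed.

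Estimated counts were tested with edgeR 4.0.16 (filterByExpr, TMM, quasi-likelihood test, Benjamini-Hochberg adjustment over 18140 genes). Alternatives used DESeq2 1.42.0 and limma 3.58.1. Scripts were tested on simulated data. Chain shares used TPM and two-sided exact permutation tests over 20 assignments of libraries. 3'UTRs were taken from GENCODE M21, in which 55154 of 55421 identifiers were found. Of other lists, the 4 genes with the largest change past the cut-off and the 2 with the highest TPM were named. Members and lists were chosen with earlier results of these data known. Some related genes are not reported here.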

Additional observations from a re-analysis of the deposited data

How the results depend on the processing

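Lama4, Lama5, Lamb2, Nid1 and Nid2 kept their direction under every alternative tried. Against a log2 fold change of 1 (glmTreat), 0 members were higher (3 at the main test) and 2 were lower (3 at the main test). Lama4 and Nid2 stayed lower, and Lamb2 did not pass. By the same test 396 of all genes were higher and 530 lower, 0 of the other laminin and netrin-4 genes higher (1 at the main test), 1 basement membrane gene higher and 3 lower, 1 receptor higher and 0 lower, and 0 glycosylation genes lower. Past the cut-off, limma on log2(TPM + 1) called 391 genes higher and 564 lower, against 832 and 959 in the main test, while log2(TPM + 0.1) gave 814 and 995, so these counts moved with the pseudocount. With limma on log2(TPM + 1) and on log2(TPM + 0.1), 2 glycosylation genes were lower (4 at the main test). Leaving out 1 library, 1 to 3 glycosylation genes were lower. With DESeq2, with at least 10 counts in every library and with the replicate number as a block, 5 were lower. The Lama4 share of the alpha chains differed by -20.9 percentage points with counts per exon length and by -19.0 with TPM. The summed laminin TPM differed by -53.8, and by -29.5 with counts per exon length, rescaled to the control mean of TPM. The cause of the other shifts was not tested.

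Lamb1 had no stable sign. Its log2 fold change was 0.0086 with RLE size factors, 0.015 with upper-quartile factors, 0.0056 with DESeq2, 0.0056 with counts per read pair (chosen after seeing the data) and -0.026 to 0.019 with 1 library left out. Lamc1 gave -0.33 with limma on log2(TPM + 1), -0.34 on log2(TPM + 0.1) and -0.11 to 0.16 with 1 library left out, the lowest without miR-322/-503 replicate 3. Lamc3 gave -0.40 to 0.13 with 1 library left out.

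The labels do not say whether libraries with the same replicate number are pairs, and the main fit did not pair them. The deviations of same-numbered libraries from their group means correlated at 0.264, 0.156 and 0.0994. By these deviations, 6 of 6 libraries correlated best with their own number. With the replicate number as a block, 3 members were higher and 3 lower, 2 of them past the cut-off, 6 receptors were higher and 4 lower (4 and 3 without the block), and over all genes 747 were higher and 893 lower past the cut-off.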

Other observations

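Of 16 genes for the glycosylation of dystroglycan, the receptor that binds laminin through its sugar chains, 4 fell and 12 were not past the threshold, with a median log2 fold change of -0.19. Of all tested genes, 28.8% were called in either direction and 15.5% fell. Gmppb (-0.91) and Pomgnt2 (-0.64) fell and both lie on chromosome 9, and Rxylt1 (-0.27) and Dpm3 (-0.44) fell as well. These genes were named after their values were seen. The most abundant genes of the list, Pomgnt1 (-0.14, edgeR, adjusted p = 0.161) and Dpm2 (-0.26, edgeR, adjusted p = 0.0521), were not past the threshold.

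The endothelial, macrophage and Schwann cell markers were low. Among 5 endothelial markers, 2 were tested and Tek rose, with counts of 77, 89 and 110 (control) and 469, 277 and 300 (miR-322/-503), while Pecam1, Cdh5 and Kdr did not exceed 12 counts in any library. The summed endothelial TPM lay between 0.573 and 0.835 in the control and between 1.61 and 2.47 with miR-322/-503. Among 4 macrophage markers, 2 were tested and none passed the threshold, with Adgre1 at 0 in all libraries and summed TPM of 3.28 to 5.74 against 5.71 to 6.49. Among 4 Schwann cell markers, 3 were tested and none passed, with Sox10 at 0 in all libraries and summed TPM of 1.03 to 1.90 against 1.42 to 1.53. The part of these markers in the changes of laminin and nidogen genes was not tested.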
